A study of Mus musculus with 9 samples.

Results

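Transcripts of 10 genes of the bone morphogenetic protein (BMP) pathway were examined in the mouse optic cup at E11.5: the ligand genes Bmp4 and Bmp7, the receptor genes Bmpr1a, Bmpr1b and Bmpr2, the decoy receptor gene Bambi, and Nog, Chrd, Chrdl1 and Grem1, which encode secreted antagonists. Members were the probe sets that the platform annotation gives to a single one of these symbols, 24 of 45101 probe sets on the array. The main value of a gene is that of the probe set whose mean over all 9 arrays was highest, and its other probe sets are given beside it. Of the 10 genes, 9 were among the 12770 genes tested of 18193 with a named probe set, and Nog was too dim.

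RNA came from laser-microdissected pieces of the optic cup, with 3 arrays for the optic fissure, 3 for the nasal cup and 3 for the temporal cup. The capture of fissure sample A reached to a distance of 5 cell diameters from the fissure margin, and no distance is recorded for fissure samples B and C. The nasal and temporal captures were taken at the middle of their side. All samples are labelled E11.5. Strain, genotype and treatment are not given in the labels used here, and no dorsal captures were analysed here. The arrays of a region are described as biological replicates and lettered A, B and C, and p-values reflect only how far these 9 samples spread.

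BMPs are secreted dimers of the TGF-beta superfamily. A ligand brings type I receptors (Bmpr1a, Bmpr1b) and a type II receptor (Bmpr2) together, the type I receptor then phosphorylates Smad1, Smad5 or Smad9, and these enter the nucleus with Smad4. Bambi resembles a type I receptor without a kinase domain and blocks signalling at the membrane, while noggin, chordin, chordin-like 1 and gremlin 1 bind ligands outside the cell. In the eye, Bmp4 is known for its dorsal domain and its place in lens induction, and loss of Bmp7 in mice can leave the optic fissure open.

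All 7 measured markers of the optic cup lay above the 40th percentile on all 9 arrays. Their summed intensity was 6921 to 7770 in the fissure, 9560 to 10507 in the nasal cup and 8853 to 9689 in the temporal cup. Of these 7, Pax6 was lower in the fissure than in the other regions averaged, with a mean of 1565 against 3199 nasal and 2835 temporal (change -0.94 in log2(intensity + 16), limma adjusted p = 0.00147). Blocking on the letter of the array also called Otx2 lower and Lhx2 higher (adjusted p = 0.0394 and 0.00722). Of 11 tested leukocyte markers, 11 were higher in the fissure (limma, adjusted p below 0.05), with a summed intensity of 2857 to 3406 against 499 to 783 nasal and 398 to 665 temporal over 12 genes. C1qa, C1qc and Aif1 are among the 11, and they passed the filter on low values only through the fissure arrays, where they are high. Of 7 tested lens markers, 4 were higher (5 with the block, which adds Cryab), and the sum over 10 genes was 2412 to 3489 in the fissure against 663 to 702 nasal and 613 to 1234 temporal. Of the 4, Crybb1 needed its fissure arrays to pass the filter. Of 11 mesenchyme markers 4 were higher (5 with the block, which adds Foxc1) and 2 lower, with sums of 1196 to 2440 in the fissure against 823 to 1254 nasal and 653 to 1398 temporal. Of 7 tested surface ectoderm markers 3 were lower and 1 was higher, and the block adds Tfap2b as higher. Cdh1, the higher marker, passed the filter only through the fissure arrays, and Dsp, among the 3 lower, only through nasal and temporal arrays. Sums over 10 genes were 524 to 619 in the fissure against 1219 to 1585 nasal and 894 to 1370 temporal. Of 8 tested endothelial markers 0 passed in limma (2 at an unadjusted p below 0.05, 1 with the letter as a block), with sums of 434 to 866 in the fissure against 406 to 556 nasal and 447 to 658 temporal. Of 6 tested erythroid markers 0 passed (3 at an unadjusted p below 0.05, 3 with the block), with sums of 13324 to 17821 in the fissure against 9447 to 14800 nasal and 11522 to 13340 temporal. No marker read 0 on any array. The signal of the poly-A spike, RNA added to the sample before labelling, was 8.23 ± 0.67 on the log2 scale in the fissure, 7.48 ± 0.46 in the nasal cup and 7.27 ± 0.52 in the temporal cup (SD, n = 3 each). Fissure array B stood apart on the first principal component, at -9.40 against -38.6 and -43.0 for the other fissure arrays. The part of these differences in the results below was not tested, except that fits without array B and with the spike as a covariate are given.

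Bmp7 and Bmpr1b were higher in the fissure and Bambi was lower, each relative to both the nasal and the temporal cup. No member passed the test between nasal and temporal cup. Against both other regions averaged, 2 of 9 tested members were higher, where 5.72% of all tested genes were, and 1 was lower, where 2.88% were, so that 3 passed where 8.60% of tested genes did. The same 3 had fissure arrays that did not overlap the other 6, as did 14.2% of tested genes. The median log2 change of the 9 members was 0.09, and that of all tested genes 0.04. In such bulk samples, fewer cells of a type and less RNA per cell cannot be told apart.

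**Figure D1:**
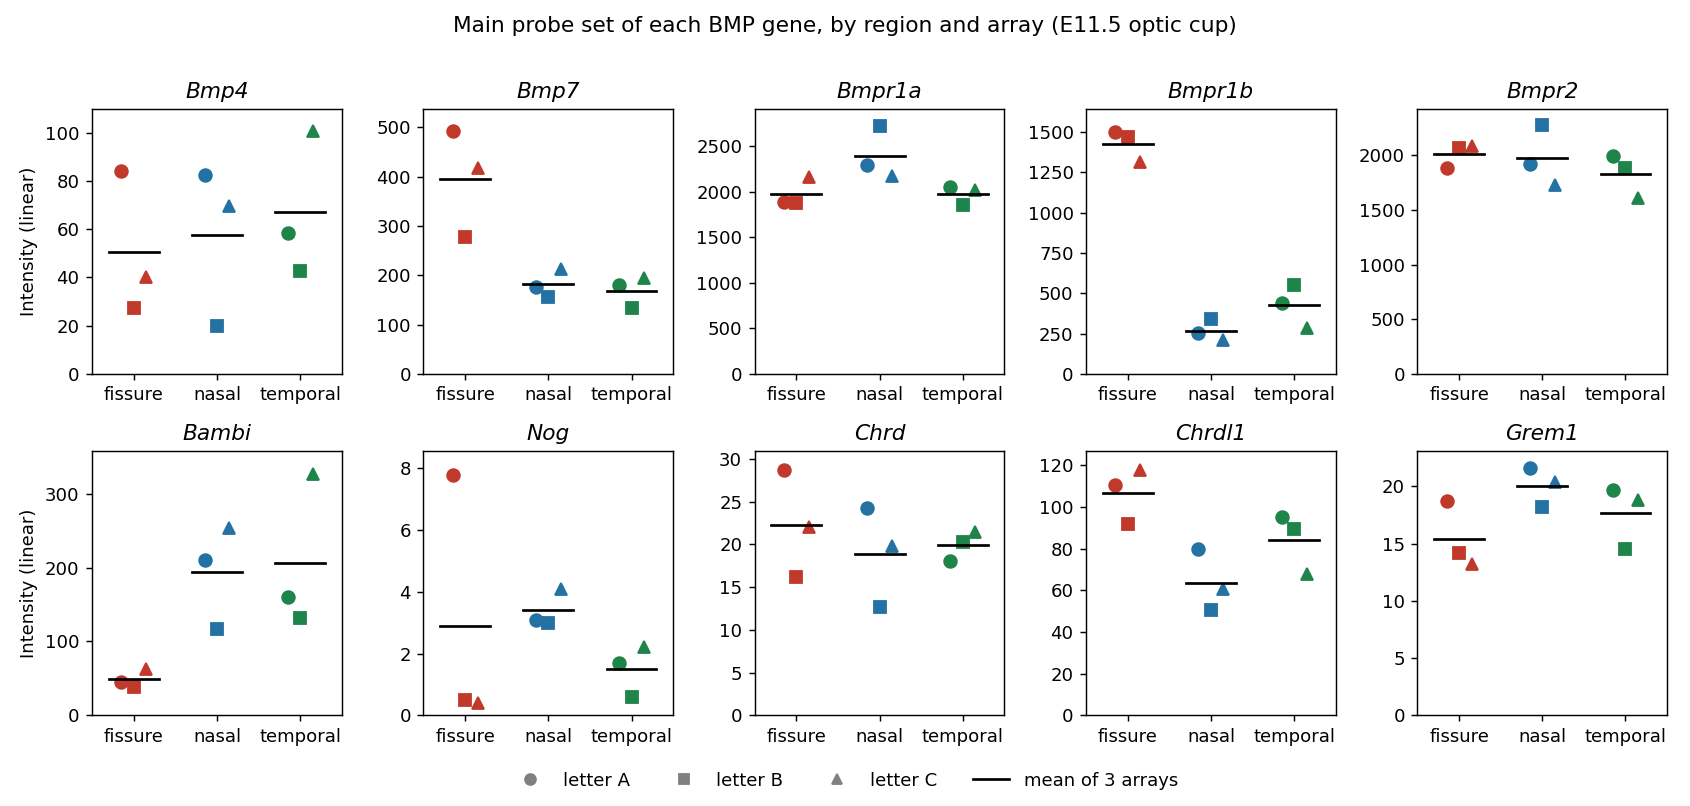
Intensity (linear scale, vertical axis from 0) of the main probe set of each of the 10 genes on the 3 fissure, 3 nasal and 3 temporal arrays, with a marker shape for each letter and a line at the mean of 3 arrays. Bmp7 and Bmpr1b are higher and Bambi lower on every fissure array than on any other array, while Bmp4, Bmpr2 and Chrd overlap between all regions.

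Of the ligands, Bmp7 read 493, 277 and 417 on fissure arrays A, B and C, against 176, 156 and 213 on the nasal and 180, 133 and 193 on the temporal arrays. All 3 fissure arrays lay above the other 6, and fissure array B was the lowest of the fissure. The mean was 396 ± 110 in the fissure against 182 ± 28.7 nasal and 169 ± 31.9 temporal (SD, n = 3 each), or 2.26 times the mean of both. On the log2(intensity + 16) scale, on which all changes are given, the change was 1.08 (SE 0.19, 95% interval 0.65 to 1.51, limma adjusted p = 0.00494). Within the letters the difference was 1.39 in A, 0.87 in B and 0.98 in C. Bmp7 was also higher in the fissure against the nasal cup alone (1.03, SE 0.22, adjusted p = 0.0189) and against the temporal cup alone (1.13, SE 0.22, adjusted p = 0.0124), which share the fissure arrays. These 2 calls rested on single arrays: the adjusted p was 0.0952, 0.0753, 0.0723 and 0.0747 against nasal without fissure A, fissure C, nasal A or nasal B, and 0.0658, 0.0540 and 0.0539 against temporal without fissure A, fissure C or temporal B. With the spike as a covariate the change against both was 0.96 (SE 0.26) and no longer passed (adjusted p = 0.0853). The spike signal was itself higher on average in the fissure, so that fit cannot fully separate spike from region. Without fissure array B it was 1.31 (adjusted p = 0.00132).

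Bmp7 has 2 further probe sets. One read 260, 91.3 and 209 in the fissure, against 61.2, 37.4 and 81.2 in nasal and 62.6, 42.6 and 69.5 in temporal cup. Its change was 1.36 (SE 0.29, limma adjusted p = 0.0209 over the 28899 probe sets tested). The other read 30.5, 25.8 and 13.9 in the fissure, against 2.1, 11.6 and 2.3 in nasal and 10.1, 4.3 and 3.9 in temporal cup, and was not tested, since only 2 of its 9 values lay above the 40th percentile of their array. On the tested probe set the fissure arrays did not overlap the others.

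Bmp4 showed no difference between regions that exceeded the spread of its arrays. It read 84.0, 27.2 and 40.1 in the fissure, against 82.6, 19.9 and 69.7 in nasal and 58.2, 42.7 and 101 in temporal cup. The regions overlapped throughout. The means were 50.4 ± 29.8 in the fissure, 57.4 ± 33.1 nasal and 67.1 ± 29.9 temporal (SD, n = 3 each), and the change in the fissure against both was -0.23, with an interval from -1.01 to 0.54 (adjusted p = 0.761), which reaches a 2-fold lower level in the fissure. Within the letters, the difference was 0.23, -0.09 and -0.83, and nasal minus temporal was 0.41, -0.71 and -0.44. Bmp4 has 1 probe set here.

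Bmp4, Bmp7 and Bambi were lowest on the array of letter B in every region, as were 17.6% of tested genes. Bmpr1b was lowest on the array of letter C in every region, as were 6.90% of tested genes. Deviations thus ran along the letters in part, which is why within-letter differences are given.

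Of the receptors, Bmpr1b had the largest change of the 9 tested members. It read 1499, 1467 and 1314 in the fissure, against 256, 338 and 209 in nasal and 440, 554 and 282 in temporal cup. The fissure arrays lay close together and far above the others, and nasal and temporal arrays overlapped. The mean was 1427 ± 98.8 in the fissure, 268 ± 65.1 nasal and 425 ± 136 temporal (SD, n = 3 each), which is 5.33 times the nasal and 3.36 times the temporal mean. The change was 2.06 against both (SE 0.21, interval 1.61 to 2.52, limma adjusted p = 1.10e-04), 2.37 against nasal (SE 0.24, adjusted p = 1.57e-04) and 1.76 against temporal (SE 0.24, adjusted p = 0.00129). Within the letters, the difference from both was 2.11, 1.72 and 2.36. Without fissure array B it was 2.04 (adjusted p = 5.48e-04), and with the spike as a covariate 2.39 (adjusted p = 5.46e-04).

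Both other probe sets of Bmpr1b were also higher in the fissure. One read 58.4, 102 and 56.7 in the fissure, against 25.5, 10.5 and 23.4 nasal and 24.8, 32.5 and 22.2 temporal (change 1.16, SE 0.21, adjusted p = 0.00732 over probe sets). The other read 46.2, 67.7 and 41.6 in the fissure, against 13.8, 2.7 and 14.1 nasal and 15.6, 24.0 and 16.1 temporal. It lay above the 40th percentile on 4 arrays, those of the fissure and temporal B. This probe set was thus tested only because it is high in the fissure. Its limma change of 1.17 (SE 0.20, adjusted p = 0.00515) is given as a description. On both, fissure array B was the highest array, whereas on the main probe set it lay between the other fissure arrays. The added 16 understates the changes of low values such as these.

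Bmpr1a, which encodes the other type I receptor, did not pass in any comparison. It read 1888, 1870 and 2156 in the fissure, against 2291, 2724 and 2166 in nasal and 2051, 1858 and 2019 in temporal cup. The fissure arrays overlapped the temporal ones and lay just below the nasal ones. The change against both was -0.14 (SE 0.13, interval -0.43 to 0.15, adjusted p = 0.594), and against nasal -0.27 (SE 0.15, interval -0.61 to 0.06, adjusted p = 0.381). Of its 6 probe sets, 5 were tested and none passed against both, with changes between -0.38 and 0. The one at -0.38 (adjusted p = 0.150 over probe sets) read 45.8, 40.8 and 32.3 in the fissure, against 48.9, 45.1 and 51.5 nasal and 64, 66 and 65.1 temporal. Its fissure arrays lay below the temporal ones and overlapped the nasal ones, since fissure A was above nasal B.

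Bmpr2, the gene of the type II receptor, read 1883, 2068 and 2091 in the fissure, against 1925, 2276 and 1728 nasal and 1996, 1885 and 1611 temporal. All regions overlapped. The change against both was 0.09, with the narrow interval of -0.22 to 0.39 (SE 0.14, adjusted p = 0.774). Its 2 other probe sets had changes of 0.06 and 0.05 (adjusted p = 0.920 and 0.912 over probe sets). Of the 3 receptor genes, Bmpr1b alone passed in limma.

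The stretches upstream of the type I receptor genes are shown because Bmpr1b passed the test and Bmpr1a did not. After a chromosome was left out of the choice, RefSeq promoter windows (GRCm38.p6) remained for 6 of the 10 genes. The 250 bases before the annotated start were used. Bmp7, Bambi, Nog and Chrdl1 have no window here, which does not mean that RefSeq lacks it. They lie at chr14:34502547-34502796 for Bmpr1a, and at chr3:141982265-141982514 and chr3:141931589-141931838 for 2 of the 3 annotated starts of Bmpr1b, all on the minus strand. Capitals mark CG dinucleotides.
Bmpr1a: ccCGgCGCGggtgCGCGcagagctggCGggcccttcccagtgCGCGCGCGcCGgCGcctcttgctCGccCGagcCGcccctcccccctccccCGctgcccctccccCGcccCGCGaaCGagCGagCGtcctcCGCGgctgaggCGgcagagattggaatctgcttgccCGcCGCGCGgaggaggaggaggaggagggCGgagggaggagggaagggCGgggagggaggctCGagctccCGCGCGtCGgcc
Bmpr1b, first start: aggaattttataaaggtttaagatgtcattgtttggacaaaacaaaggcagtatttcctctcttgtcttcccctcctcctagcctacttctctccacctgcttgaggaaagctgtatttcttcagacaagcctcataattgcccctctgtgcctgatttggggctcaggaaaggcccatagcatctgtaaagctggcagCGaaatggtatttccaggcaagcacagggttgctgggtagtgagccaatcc
Bmpr1b, second start: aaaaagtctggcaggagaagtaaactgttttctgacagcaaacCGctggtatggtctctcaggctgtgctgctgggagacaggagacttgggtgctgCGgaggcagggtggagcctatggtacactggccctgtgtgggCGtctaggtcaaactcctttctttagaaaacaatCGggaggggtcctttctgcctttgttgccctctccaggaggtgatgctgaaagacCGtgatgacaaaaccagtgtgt
The Bmpr1a window holds 36 CG dinucleotides, the first of Bmpr1b 1 and each of its other 2 windows 5, where the median of 32851 windows is 6. The hexamer GGCGCC, a GC-rich sequence that BMP-activated Smads can bind, reads the same on both strands. It occurs in the windows of Bmpr1a, Bmpr2, Chrd and Grem1, in none of the 3 of Bmpr1b, not in that of Bmp4, and in 9.59% of all windows. The windows with it hold 36, 22, 28 and 24 CG dinucleotides in that order, and that of Bmp4 holds 11. The hexamer itself contains CG, and the 9.59% is not matched for CG content. The homeodomain core TAATTA, also the same on both strands, is in none of the members' windows used here and in 4.84% of all. These matches describe letters and not sites in use.

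Bambi was the only tested member that was lower in the fissure in limma. It read 45.6, 38.6 and 63.2 in the fissure, against 210, 117 and 254 in nasal and 161, 131 and 327 in temporal cup. Every fissure array lay below the other 6, which spread widely and overlapped each other. The mean was 49.1 ± 12.7 in the fissure, 194 ± 69.6 nasal and 206 ± 105 temporal (SD, n = 3 each), so that the fissure had 0.25 times the mean of both. The change was -1.67 (SE 0.28, interval -2.29 to -1.04, limma adjusted p = 0.00356), and within the letters -1.70, -1.36 and -1.94. It was -1.64 against nasal (SE 0.33, adjusted p = 0.0117) and -1.69 against temporal (SE 0.33, adjusted p = 0.0110). Against nasal the adjusted p was 0.0515, 0.0563 and 0.0501 without fissure A, nasal A or nasal C. Without fissure array B the change against both was -1.55 (adjusted p = 0.0136), and with the spike as a covariate -2.17 (adjusted p = 0.00353). Bambi has 1 probe set here.

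**Figure D2:**
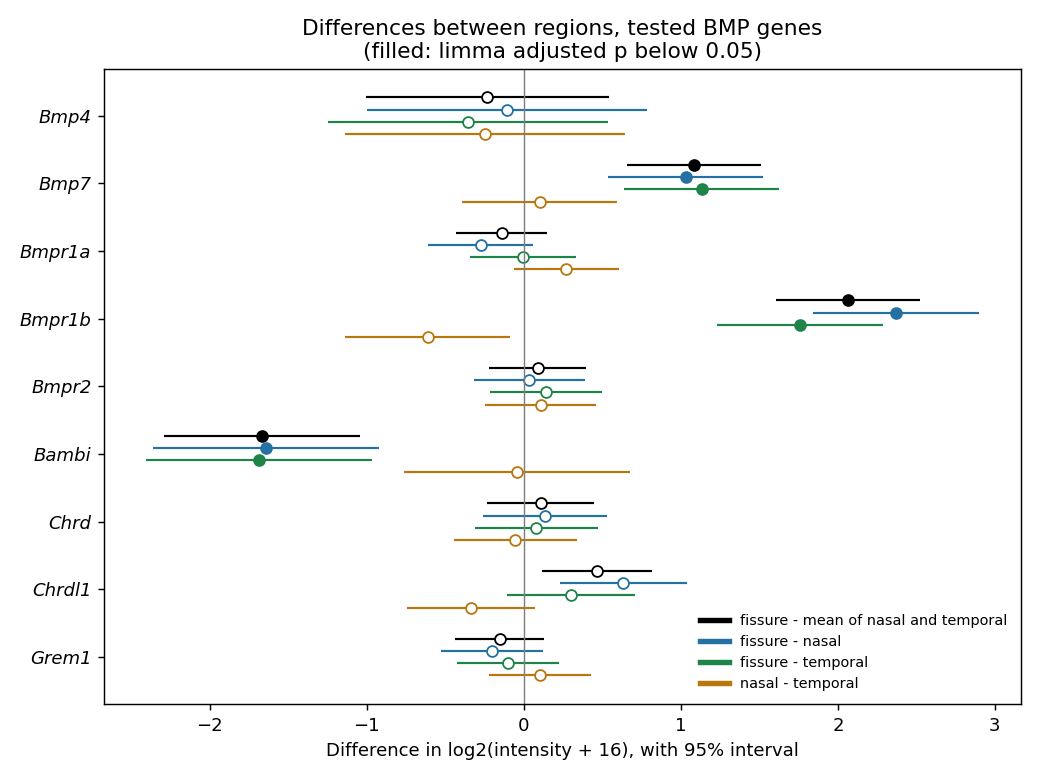
Differences between regions in log2(intensity + 16) (horizontal axis) for the 9 tested genes (vertical axis), with 95% intervals from limma and filled points where the adjusted p was below 0.05. The intervals of Bmp7 and Bmpr1b lie above 0 and those of Bambi below 0 in all 3 comparisons that involve the fissure, and no nasal-temporal difference passed.

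Of the antagonists, Chrdl1, the chordin-like 1 gene, was the only one with a difference near the threshold. It read 111, 91.8 and 118 in the fissure, against 79.6, 50.5 and 60.8 in nasal and 95, 89.5 and 67.8 in temporal cup. The fissure arrays lay above the nasal ones but overlapped the temporal ones. The change was 0.47 against both (SE 0.16, limma adjusted p = 0.104) and 0.63 against nasal (SE 0.19, adjusted p = 0.0712). Once the letter was a block in the fit it passed in both comparisons (adjusted p = 0.0437 and 0.0282), where 17.0% and 12.5% of all tested genes passed. Within the letters the difference from both was 0.30, 0.36 and 0.74. Against temporal alone it was 0.30 (adjusted p = 0.444). Another probe set read 78.0, 76.4 and 95.1 in the fissure, against 56.6, 64.6 and 52.7 nasal and 52.6, 71.4 and 80.0 temporal (change 0.33, adjusted p = 0.284 over probe sets), and the others had changes of 0.16 and -0.13.

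Chrd, Grem1 and Nog lay near or below the filter. The 40th percentile of the arrays lay between 15.7 and 17.5. Chrd, the chordin gene, was above it on 7 arrays and read 28.7, 16.2 and 22.0 in the fissure, against 24.3, 12.7 and 19.8 nasal and 18.1, 20.3 and 21.4 temporal (change 0.11, interval -0.23 to 0.45, adjusted p = 0.745). Grem1 was above it on 6 arrays and read 18.7, 14.2 and 13.2 in the fissure, against 21.6, 18.2 and 20.4 nasal and 19.7, 14.5 and 18.8 temporal (change -0.15, interval -0.44 to 0.13, adjusted p = 0.540). Nog, the noggin gene, was below it on all 9 arrays, at 7.8, 0.5 and 0.4 in the fissure, 3.1, 3 and 4.1 nasal and 1.7, 0.6 and 2.2 temporal. Its nasal arrays lay above the temporal ones, all below that percentile, and it was not tested. At such levels the arrays give little hold on a difference in either direction.

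**Figure D3:**
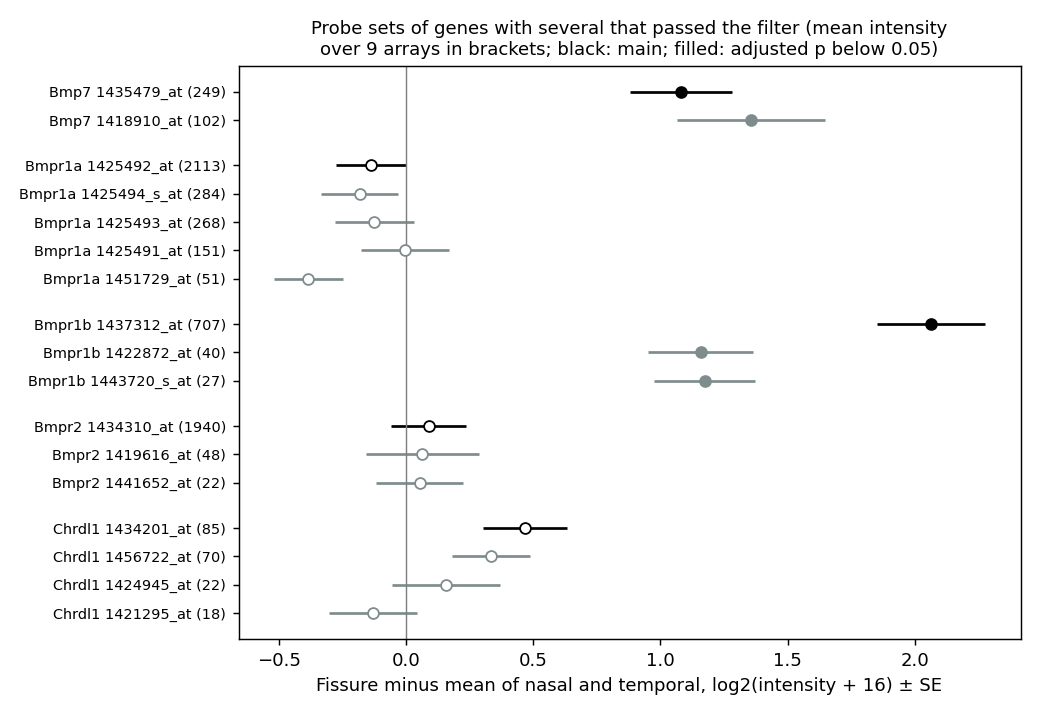
Fissure minus the other regions averaged, in log2(intensity + 16) ± SE (horizontal axis), for each probe set that passed the filter of the 5 genes with more than 1 (vertical axis, mean intensity in brackets). The probe sets of Bmp7 and Bmpr1b are all above 1, those of Bmpr1a and Bmpr2 lie between -0.38 and 0.09, and those of Chrdl1 between -0.13 and 0.47. The dimmest of Bmpr1b (mean 27) was tested only through its fissure arrays.

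In the separate comparisons, the 3 genes also passed against nasal, where 6.37% of tested genes passed, and against temporal, where 5.36% did. Between nasal and temporal cup, 0 of 9 members passed in limma, and 0.0470% of tested genes did. Bmpr1b was the only member with an unadjusted p below 0.05 there. Its nasal arrays read less than the temporal array of the same letter in A, B and C, by 0.75, 0.69 and 0.41 on the log2 scale, a change of -0.61 (SE 0.24, adjusted p = 1.0, and 0.452 with the block). Its 2 other probe sets had differences of -0.27 and -0.42. Bmpr1a had nasal arrays that lay above all temporal ones (change 0.27, SE 0.15, adjusted p = 1.0).

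The 3 tested genes that followed each passing member most closely over the 9 arrays were as follows, as a description in which the regions' own difference takes part. For Bmp7 they were Stab1 (Pearson r = 0.99), a scavenger receptor gene of macrophages and sinusoidal endothelium, Col11a1 (r = 0.99), a fibrillar collagen gene, and Nudt9 (r = 0.99). Stab1 averaged 103 in the fissure against 29.5 nasal and 26.0 temporal, and the leukocyte markers were higher in the same arrays, whose part in the Bmp7 difference was not tested. For Bmpr1b they were Gnai1 (r = 0.99), a G protein subunit gene, Gpm6a (r = 0.99), a neuronal membrane protein gene, and Adgrl3 (r = 0.98), a latrophilin gene. For Bambi they were Lrrc4c (r = 0.99), a netrin-G ligand gene, Dapl1 (r = 0.98) and E2f3 (r = 0.97), a cell cycle transcription factor gene.

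Of 61 other genes listed for the pathway and its targets, 55 had a probe set and 39 were tested. Of these, 3 were higher and 6 lower in the fissure against both, where 5.72% and 2.88% of all tested genes were. With the letter as a block, 17.0% of all tested genes passed, which is the background for the block calls below. These counts include Bmper, which needed its fissure arrays to pass the filter, and Msx2, which passed only through its temporal arrays. They also include Gdf10, with 0 fissure, 2 nasal and 3 temporal arrays above the 40th percentile, and Tll1, with 0, 3 and 3. Each of these genes was thus tested because of regions where it is high. Among 4 other ligand genes tested, 2 were lower. Bmp2 read 33.8, 23.5 and 16.1 in the fissure, against 68.0, 72.7 and 60.8 nasal and 49.3, 43.6 and 33.1 temporal (change -0.80, SE 0.16, adjusted p = 0.0107). Its fissure arrays lay below the nasal ones and overlapped the temporal ones by a single array. Gdf10 was at 6.9, 1.2 and 12.2 in the fissure, against 14.6 to 22.1 nasal and 24.0 to 44.7 temporal (adjusted p = 0.0202). None of its fissure arrays lay above the 40th percentile, so the size of its difference is not quoted in the text. It passed the filter only through nasal and temporal arrays, and its adjusted p is given as a description. The median of these 4, with Gdf10 included, was -0.43.

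Among 8 other receptors and co-receptors, Tgfbr3, the betaglycan gene, was higher. It read 325, 351 and 311 in the fissure, against 121, 189 and 122 nasal and 169, 212 and 177 temporal (change 0.96, SE 0.16, adjusted p = 0.00325). Eng, a co-receptor gene of endothelium, read 67.1, 53.3 and 50.4 in the fissure, above every other array, against 22.4 to 39.5 nasal and 10.6 to 43.9 temporal, and passed only once the letter was blocked (adjusted p = 0.0212, and 0.0739 without the block). The receptor genes Acvr1, Acvr2a and Acvr2b had changes of 0.06, -0.13 and 0.28 (adjusted p = 0.873, 0.762 and 0.550). The median of the list was 0.15.

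Among 9 other secreted modulators, Bmper, a secreted BMP-binding regulator gene, read 34.2, 39.2 and 30.3 in the fissure, against 7.70, 1.90 and 0.60 nasal and 24.9, 14.8 and 12.9 temporal. It was above the 40th percentile on 3 fissure, 0 nasal and 1 temporal arrays, so that it was tested only because it is high in the fissure, and its adjusted p of 0.00289 is given as a description. With the block Fstl1 was higher too (change 0.51, adjusted p = 0.326 without it and 0.0273 with it). The median of the list was -0.04. Of the proteases that cleave chordin, Tll1 was lower, at 4.20, 7.90 and 4.40 in the fissure, against 22.4, 21.9 and 31.6 nasal and 54.2, 97.9 and 38.2 temporal (adjusted p = 0.00165), and Bmp1 did not pass (change -0.26, adjusted p = 0.642). None of the fissure arrays of Tll1 lay above the 40th percentile, so the size of its difference is not quoted in the text. It passed the filter only through nasal and temporal arrays, and its adjusted p is given as a description. None of 7 Smad and Smurf genes passed in limma, with or without the block, and 0 had an unadjusted p below 0.05. Their changes ran from -0.19 for Smad4 to 0.18 for Smurf1.

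**Figure D4:**
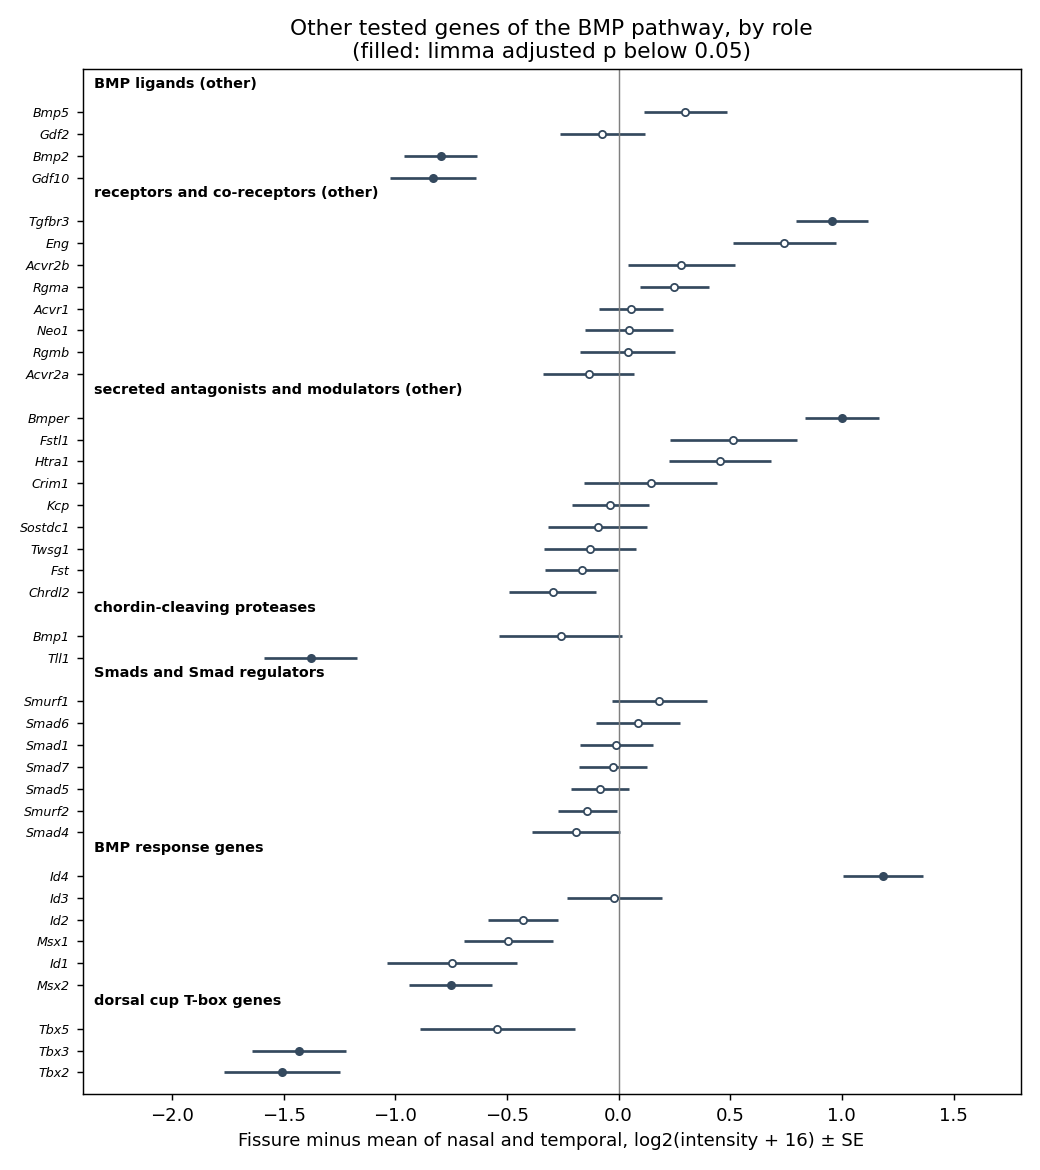
Fissure minus the other regions averaged, in log2(intensity + 16) ± SE (horizontal axis), for the 39 other tested genes, grouped by role (vertical axis), filled where the limma adjusted p was below 0.05. Tgfbr3, Bmper and Id4 are the 3 filled points above 0, of which Bmper was tested only through its fissure arrays. Gdf10, Tll1 and Msx2 have no fissure array above the 40th percentile, and their plotted sizes are a description only. The Smad and Smurf genes all lie within 0.20 of 0.

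Genes that BMP signalling is known to induce did not move as one. The median change of the 6 tested, with the dim Msx2 among them, was -0.46, and only that of Id4 was above 0. Id4 was higher, at 104, 156 and 88.6 in the fissure, against 29.8, 27.3 and 38.0 nasal and 42.2, 62.0 and 53.1 temporal (change 1.18, SE 0.18, adjusted p = 0.00155). Msx2 read 8.7, 2.6 and 3 in the fissure, against 7.2, 8.9 and 13.3 nasal and 21.5, 27.0 and 47.5 temporal. It stood above the 40th percentile only on the temporal arrays and was tested only because of them, and its adjusted p of 0.0272 is given as a description. Id1 (-0.75, adjusted p = 0.151) and Id2 (-0.43, adjusted p = 0.126) passed only with the block (0.00702 and 0.0278), while Id3 (-0.02, adjusted p = 0.976) and Msx1 (-0.49, adjusted p = 0.166) did not pass with or without it. The T-box genes of the dorsal cup Tbx2 and Tbx3 were lower (-1.51 and -1.43, adjusted p = 0.00380 and 0.00131), and Tbx5 did not pass (-0.54, adjusted p = 0.404).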

How the data were processed

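Affymetrix mouse arrays of 9 optic cup samples were analysed, 1 array per sample. The authors deposited 1 linear intensity per probe set. Their summarisation and scaling steps are not given in the sources used here. The mean after trimming 2% from each end was 150 on every array and the medians ran from 27.5 to 30.3, so no further scaling was done. No detection calls were used, and the number of arrays limits the precision. The platform annotation gave 34945 probe sets 1 symbol, 932 several and 9160 none, and 64 were controls. The symbols of the 10 members matched RefSeq by gene ID.

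Intensities were turned into log2(intensity + 16). A gene was tested if its brightest probe set lay above the 40th percentile of the array on at least 3 arrays. A model with a mean for each region was fitted with limma 3.58.1 under R 4.3.3 (lmFit and eBayes, all 9 arrays together), with Benjamini-Hochberg adjustment over 12770 genes and a threshold of 0.05. A second fit over 28899 probe sets gave the values of the members' other probe sets. The fit was tested on simulated data. Figures were drawn with matplotlib 3.10.9.

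Whether the letters pair arrays was checked. Residuals around the region means correlated at 0.17 to 0.49 in the 9 pairs of arrays with the same letter and at -0.44 to 0.22 in the 18 others. All 9 exceeded 0.1, so the letter as a block is given where it changes the call of a named gene or list. The pairing rests on the data, not on the labels.

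All 10 members are named. Of other pathway genes, those that passed against both regions (at most 4 each way per list), Tbx5, Msx1, Msx2 and Id1 to Id4 are named, and Eng, Fstl1, Acvr1, Acvr2a, Acvr2b, Bmp1, Smad4 and Smurf1 were added after their values were seen. Likeness is Pearson's r of log2(intensity + 16). Alternatives changed the block, filter, pseudocount, normalization, variance model, array weights, probe set rule, arrays and a spike covariate. Members and lists were chosen with earlier results of these data known.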

Additional observations from a re-analysis of the deposited data

How the results depend on the processing

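Against both regions averaged, 3 members passed, and 2 to 4 did under the 20 alternatives. The count was 2 with the spike covariate, without Bmp7, and 4 with the letter as a replicate block or with array weights, with Chrdl1 added. Bmpr1b kept its direction and passed under all alternatives in all 3 fissure comparisons, with a change of 1.47 to 2.39 against both. Bambi did so against both (-2.17 to -1.17) and against temporal.

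Against nasal the count was 3, and 1 to 4 when single arrays were left out (1 without fissure A or nasal A). Against temporal it was 2 to 3, and between nasal and temporal it was 0 throughout. With array weights Bmp4 changed by 0.11 (adjusted p = 0.770), and leaving out single arrays gave -0.57 to 0.033, above 0 without fissure array B. Chrd ran from -0.011 to 0.23 in the same way, below 0 without fissure array A. The causes were not tested. The block changed no other member's call. Over all genes, 1098 passed against both, 2172 with the block, 4100 with array weights, 465 with the spike covariate and 545 to 1721 without single fissure arrays. Against nasal these were 814, 1592, 2675 and 457, and against temporal 685, 1541, 3133 and 286. Without single arrays they ran from 420 to 1245 and from 372 to 1161. Between nasal and temporal 6 passed, and 2 to 17 did otherwise. Dim genes (Nog, Chrd, Grem1) are limited by signal over background.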
